A study of Mus musculus with 3 samples.

Results

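The cells described here are cells of newborn mouse liver in which granule protease genes were high, labelled granulocyte progenitors. The set is mixed, since 14.4% to 22.2% of these cells, by library, also had basophil or eosinophil genes, by a count limit not scaled to sequencing depth. A cell was a member if the summed UMIs (unique molecular identifiers, 1 per captured transcript) of Mpo, Elane, Prtn3 and Ctsg reached 40 per 10000 gene UMIs, called the granule sum below. It also needed fewer than 3 UMIs of Irf8 and fewer than 5 per 10000 summed over Klf1, Ermap, Rhd, Rhag and Car1, which are erythroid genes. The rule kept 1447 of 26887 cells that had 1000 or more gene UMIs, 500 or more genes and less than 10% of UMIs from mitochondrial genes. RNA and 10 antibody tags were counted together in single cells (CITE-seq) sorted from liver at postnatal day 0 as KIT-positive and negative for lineage markers. Each of 3 genotypes gave 1 library: Control, mice expressing MLL::ENL, and mice expressing MLL::ENL from which Skida1 was deleted (the Skida1-deleted library). Values given in threes keep this order. MLL::ENL joins the histone methyltransferase MLL to ENL, a reader of histone acetylation, and causes leukaemia. The 2 groups with the fusion share it, so the deletion was measured only in cells that carry it. The number of animals in each library, the promoter or Cre driver of the alleles and the deleted part of Skida1 were not given in the sources used here.

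Granulocyte progenitors make neutrophils, and in their early stages they fill azurophil granules with myeloperoxidase (Mpo), neutrophil elastase (Elane), proteinase 3 (Prtn3) and cathepsin G (Ctsg). The factors PU.1 and C/EBP alpha start this program, and C/EBP epsilon and Gfi1 carry cells on to the stage of secondary granules, whose proteins include Camp, Ngp and Lcn2. Irf8 directs the alternative monocyte and dendritic fate. MLL fusions keep HoxA genes and Meis1 active in progenitors, where these genes favour self-renewal. In surface staining, granulocyte-monocyte progenitors bind antibody to the Fc gamma receptors CD16 and CD32 and carry CD34.

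The promoters of the 4 genes that set the granule sum, and of Ms4a3, a granulocyte progenitor marker that the rule did not use, are shown because the genes' levels in the members are followed below. Each sequence is the 250 bases before the annotated start, read in the direction of transcription, from RefSeq on GRCm38.p6, and 5 of 5 genes were matched by symbol. Capitals mark AGGAAGT, a core recognised by ETS factors such as PU.1.
Mpo, chr11:87793534-87793783 (+ strand): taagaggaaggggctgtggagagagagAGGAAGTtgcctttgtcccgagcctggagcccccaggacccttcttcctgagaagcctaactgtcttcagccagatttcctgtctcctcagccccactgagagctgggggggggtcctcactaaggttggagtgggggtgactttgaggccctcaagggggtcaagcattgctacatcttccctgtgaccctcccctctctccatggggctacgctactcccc
Elane, chr10:79886062-79886311 (+ strand): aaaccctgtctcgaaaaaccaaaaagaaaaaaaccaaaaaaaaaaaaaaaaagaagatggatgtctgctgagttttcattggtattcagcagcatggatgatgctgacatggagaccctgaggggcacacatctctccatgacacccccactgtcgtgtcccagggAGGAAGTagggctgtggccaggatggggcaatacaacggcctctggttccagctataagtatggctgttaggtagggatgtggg
Prtn3, chr10:79879417-79879666 (+ strand): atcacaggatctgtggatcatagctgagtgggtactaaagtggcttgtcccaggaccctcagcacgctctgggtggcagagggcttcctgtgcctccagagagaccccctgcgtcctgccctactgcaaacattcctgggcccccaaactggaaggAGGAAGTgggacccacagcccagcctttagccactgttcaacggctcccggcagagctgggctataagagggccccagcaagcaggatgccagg
Ctsg, chr14:56102575-56102824 (- strand): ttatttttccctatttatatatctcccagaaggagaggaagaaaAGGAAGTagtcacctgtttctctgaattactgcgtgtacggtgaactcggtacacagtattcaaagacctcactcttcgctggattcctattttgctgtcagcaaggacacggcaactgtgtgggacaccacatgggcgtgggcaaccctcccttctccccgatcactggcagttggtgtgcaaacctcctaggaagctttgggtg
Ms4a3, chr19:11640852-11641101 (- strand): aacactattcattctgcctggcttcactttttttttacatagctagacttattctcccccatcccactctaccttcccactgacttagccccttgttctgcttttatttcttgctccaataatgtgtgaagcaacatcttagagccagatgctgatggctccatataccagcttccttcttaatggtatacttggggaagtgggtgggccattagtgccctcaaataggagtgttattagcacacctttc
AGGAAGT, searched on both strands, was found once in each of the 4 promoters of the rule genes, at 223 to 217 bases before the start of Mpo, 84 to 78 before Elane, 94 to 88 before Prtn3 and 206 to 200 before Ctsg. It was not found in this window of Ms4a3. It occurred in 7.69% of 32851 mouse promoters of the same length. GCAAT, part of the site of C/EBP factors, was found in the windows of Mpo and Elane and in 23.1% of all promoters. AACGG, part of a MYB site, was found in those of Elane and Prtn3 and in 14.5% of all promoters. These motifs overlapped in none of the 5 windows. The letters searched were chosen with these sequences in view, and a match describes the sequence only, not binding.

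Members made up 5.30% of filtered cells in Control (306 of 5777; 95% exact binomial interval 4.73 to 5.91), 4.43% in MLL::ENL (494 of 11148; 4.06 to 4.83) and 6.495% with Skida1 deleted (647 of 9962; 6.02 to 6.996). The share was lower in MLL::ENL than in Control, with a ratio of 0.837 (0.728 to 0.961), and higher in the Skida1-deleted library than in MLL::ENL, with a ratio of 1.47 (1.31 to 1.64). Intervals here and below cover counting error only, and with 1 library a group no difference between groups has a replicate check. The Irf8 limit acted unequally. It removed 188 of 494 otherwise eligible cells in Control (38.1%), 43 of 537 in MLL::ENL (8.01%) and 28 of 675 with Skida1 deleted (4.15%). Without it the Control share was 8.55% and the ratio of MLL::ENL to Control 0.563. Among cells with at least 5000 UMIs the same ratio was 1.01, so that the order of these libraries changed with the depth limit. Both comparisons of groups use the MLL::ENL library and are not independent of each other.

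Members had median depths of 22420.5, 15655 and 13999 UMIs in Control, MLL::ENL and Skida1-deleted members, and summed gene UMIs of 7123193, 7984584 and 9684033. Ribosomal protein genes took 26.7% to 34.8% of member UMIs, lowest in Control. Of all barcodes, 17 to 33 were shared by any 2 libraries, and 0 member barcodes were shared. Xist was counted in Control and MLL::ENL members (697 and 1266 CPM, UMIs scaled to a constant total of gene UMIs) and was at 0.31 CPM in the Skida1-deleted library, where the Y-linked gene Ddx3y was at 52.7 CPM and elsewhere at 0. Sex therefore differs between the MLL::ENL and Skida1-deleted libraries and cannot be told apart from the deletion. Skida1 itself, the deleted gene, had 0 UMIs in Control members, 50 in MLL::ENL members and 3 in Skida1-deleted members, or 0, 6.26 and 0.31 CPM. Its level was at least 14.9-fold higher in MLL::ENL than the 3-UMI floor of Control. It was 20.2-fold lower (6.53 to 101) in the Skida1-deleted library than in MLL::ENL.

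Within the members the granule sum ran from the limit of 40 to a highest cell at 554.9 per 10000 in Control, 375.7 in MLL::ENL and 465.1 with Skida1 deleted, with medians of 106.5, 73.1 and 82.6. Cells at 200 or more formed 23.9% of members in Control (19.2 to 29.0), 6.28% in MLL::ENL (4.30 to 8.79) and 11.3% with Skida1 deleted (8.95 to 14.0). Control members thus lay furthest from the limit and MLL::ENL members closest to it. These sums chose the cells and are given as description only. Near the limit, 21 Control, 59 MLL::ENL and 55 Skida1-deleted members had sums of 40 to 45, and 30, 46 and 86 cells that met the other limits lay at 35 to 40. The median CD16_32 tag count was 143, 145 and 132 UMIs just inside and 120.5, 76.5 and 113 just outside.

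**Figure D1:**
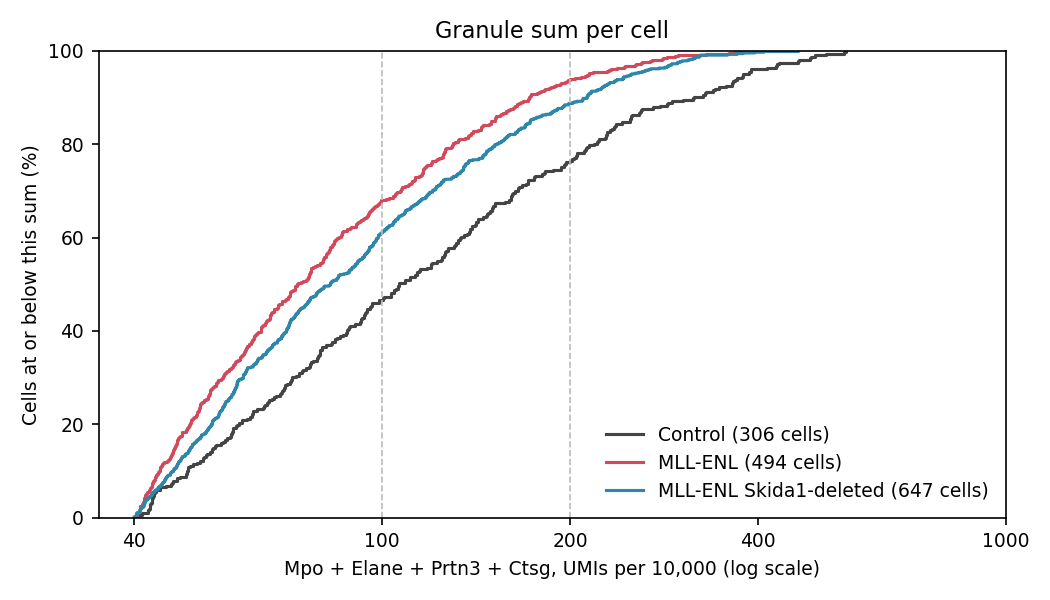
Cumulative percentage of granule-gene-high cells (vertical axis) at or below each granule sum (horizontal axis, UMIs of Mpo, Elane, Prtn3 and Ctsg per 10000, log scale), 1 line per library, with dashed lines at 100 and 200. The MLL::ENL line lies furthest left (median 73.1) and the Control line furthest right (median 106.5).

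Among the rule genes, Mpo was at 4032, 3714 and 4061 CPM in Control, MLL::ENL and Skida1-deleted members. Prtn3 was at 5508, 2902 and 3256 CPM, Ctsg at 3253, 2024 and 1984 CPM, and Elane at 1687, 978 and 1349 CPM. Mpo was thus close to level over the libraries, and the other 3 were highest in Control. The balance of the 4 genes moved along the granule sum in the same order everywhere. From the bin of 40 to 100 to that of 200 or more, Mpo went from 40.7% to 18.7% of the rule genes' UMIs in Control, from 47.3% to 22.7% in MLL::ENL and from 48.1% to 24.5% with Skida1 deleted. Elane went from 1.96% to 18.9%, from 3.01% to 23.3% and from 3.88% to 24.3%. Cells with higher sums had a larger share of Elane and a smaller share of Mpo than cells near the limit. The same 4 genes set the bins, so these shares are description only. With equal weight on the 3 bins, the log2 ratio of Elane in MLL::ENL over Control was 0.21 in place of -0.79.

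Ms4a3 (ENSMUSG00000024681), which encodes a membrane protein of granulocyte progenitors and was not used to choose the cells, had 568 CPM in Control members, 137 in MLL::ENL members and 175 in Skida1-deleted members. It was detected in 229 of 306, 214 of 494 and 284 of 647 members. The level was highest in Control by a wide margin, 4.14-fold (3.87 to 4.43) above MLL::ENL, and it was close between the 2 fusion libraries (log2 ratio 0.35). Ms4a3 climbed with the granule sum in every library, from 106 through 551 to 1507 CPM over the 3 bins in Control, from 33.8 through 208 to 951 in MLL::ENL and from 41.0 through 211 to 860 with Skida1 deleted. Control was highest in each bin, with log2 ratios of MLL::ENL over Control of -1.62, -1.40 and -0.66. By this marker the label of granulocyte progenitors held best for cells with high sums. Cells with at least 3 Irf8 UMIs and an erythroid sum below 5 per 10000, called Irf8-high below, had 76.5, 8.07 and 25.3 CPM of Ms4a3. No granule limit was set for Irf8-high cells, which numbered 366, 75 and 47. They include the 188, 43 and 28 cells with granule sums of at least 40 that only the Irf8 limit kept out of the members. Irf8-high cells are thus not a group without granule genes.

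**Figure D2:**
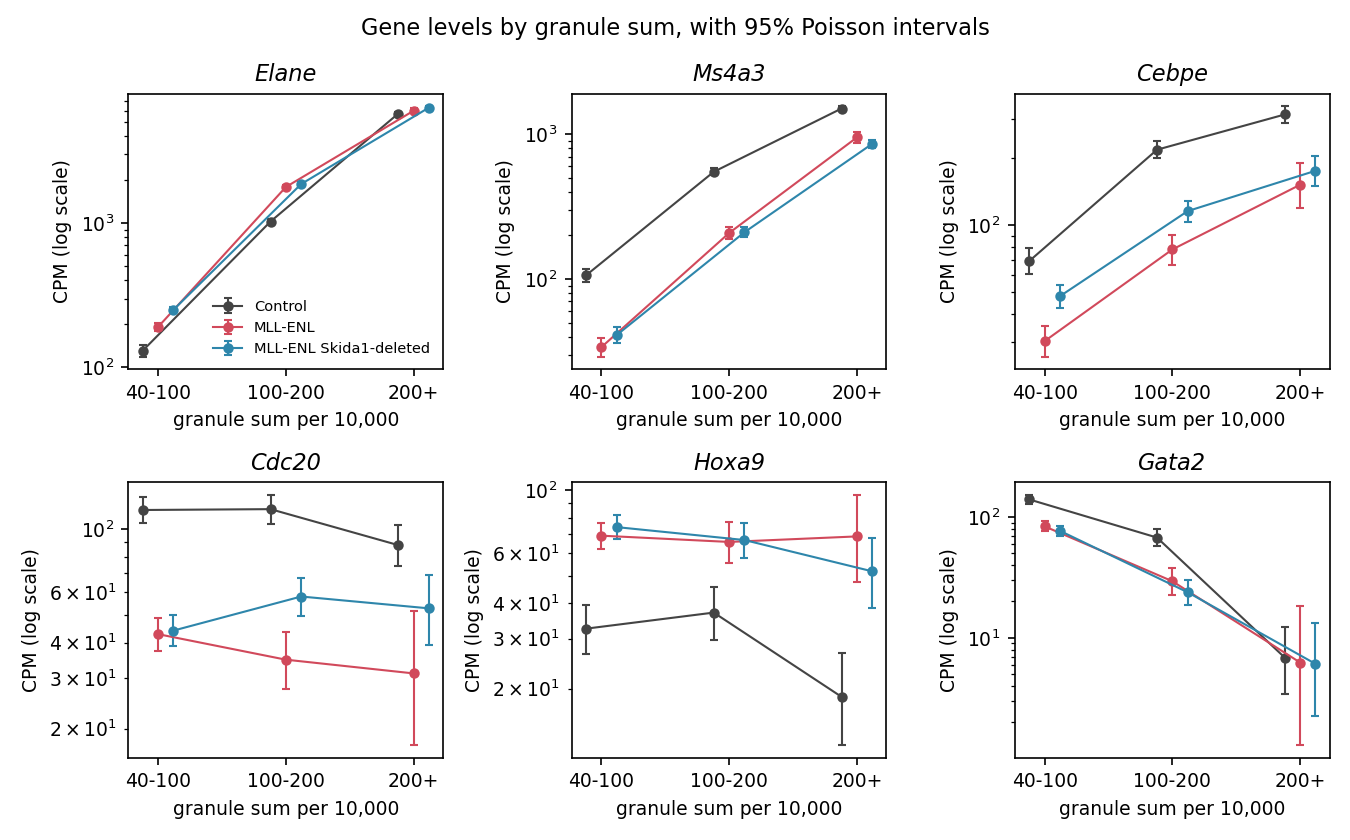
Levels of 6 genes in members (vertical axes, CPM, log scale) by bin of the granule sum (horizontal axes, 40 to 100, 100 to 200, and 200 or more per 10000), 1 line per library with 95% exact Poisson intervals. Ms4a3 and Cebpe climb with the sum and are highest in Control, Gata2 goes from 140 to 6.86 CPM in Control, and Hoxa9 is lowest in Control in every bin.

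Across all genes, called genes are those whose CPM differed by at least 1.5-fold between 2 libraries. In MLL::ENL over Control, 9321 genes were compared, of which 546 were higher (5.86%) and 1394 lower (15%), 20.8% in all, with a median log2 ratio of -0.17. Log2 ratios are of CPM + 1. Scaling by the median of ratios in place of total UMIs shifted log2 ratios by 0.16, and the counts were then 884 higher and 783 lower. In the Skida1-deleted library over MLL::ENL, 9072 genes were compared, of which 169 were higher (1.86%) and 173 lower (1.91%), 3.77% in all, with a median of -0.05. The counts of gene lists below can be read against these shares, and differences between fusion-carrying members were few.

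A list of 20 other genes covered azurophil granules and the cells that fill them. It is not limited to granule contents, since Ms4a3, Hp, Calr and Igfbp4 are on it. Of these 20, 19 were measured, of which 4 were lower in MLL::ENL and 0 higher, with a median log2 ratio of -0.36. Besides Ms4a3, the lower genes were Prss57, Ctsc and Hp. Prss57, a serine protease of azurophil granules, was at 101, 57.4 and 85.6 CPM in Control, MLL::ENL and Skida1-deleted members. Ctsc, cathepsin C, which activates the granule proteases, was at 45.2, 26.3 and 24.6 CPM. Hp, haptoglobin, was at 220, 144 and 151 CPM. All 3 were highest in Control. Prss57 and Hp were not called with equal weight on the granule-sum bins (log2 ratios -0.19 and -0.11), nor Hp with median-of-ratios scaling (-0.46). Serpinb1a, an inhibitor of elastase and cathepsin G, was at 503, 336 and 351 CPM and Srgn, the serglycin core on which granule proteins are packed, at 2008, 1568 and 1348 CPM, both differing by less than 1.5-fold between MLL::ENL and Control. For Skida1-deleted over MLL::ENL, 1 of 19 was higher and 0 lower. This was Fcnb, a ficolin of neutrophil granules, at 16.6, 11.9 and 51.8 CPM, of which the 5 highest cells held 79.7%, 85.3% and 53.2%.

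The later granule stage was carried by few cells. Of 17 secondary and tertiary granule genes, 10 were measured in MLL::ENL over Control, with 8 lower and 0 higher (median log2 ratio -1.40), and 9 in Skida1-deleted over MLL::ENL, with 7 higher and 0 lower (median 1.86). Camp, the cathelicidin, was at 227, 23.4 and 245 CPM in Control, MLL::ENL and Skida1-deleted members, but it was detected in only 12, 15 and 18 cells, and the 5 highest cells held 99.3%, 80.2% and 88.8% of its UMIs. S100a8, a calcium-binding protein of maturing neutrophils, was at 278, 106 and 768 CPM, with 76.5%, 80.3% and 70.4% held by 5 cells. Lcn2, the lipocalin of secondary granules, was at 36.9, 4.38 and 14.0 CPM. The MLL::ENL library was lowest for these genes, and the size of each difference rests on a handful of cells. Members with at least 5 UMIs of any of Camp, Ngp, S100a8 and S100a9 numbered 23 in Control (7.52%; 4.82 to 11.1), 14 in MLL::ENL (2.83%; 1.56 to 4.71) and 23 with Skida1 deleted (3.56%; 2.27 to 5.29). Without them, a choice made after seeing the data, the list's medians were -0.07 and 0.16. The cells were picked by genes of the same list, so a shift of its medians follows in part from the choice. The median granule sums of these cells were 370.9, 76.6 and 267.5 and their median CD34 tag counts 27, 15.5 and 10. In MLL::ENL these cells were shallow, with a median of 6088 UMIs against 20229 and 13097, and the part of this depth in the result was not tested. Ltb4r1, the leukotriene B4 receptor, was by contrast spread over 206, 188 and 258 cells, at 98.3, 36.2 and 46.8 CPM, and was 2.71-fold lower (2.36 to 3.13) in MLL::ENL than in Control.

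**Figure D3:**
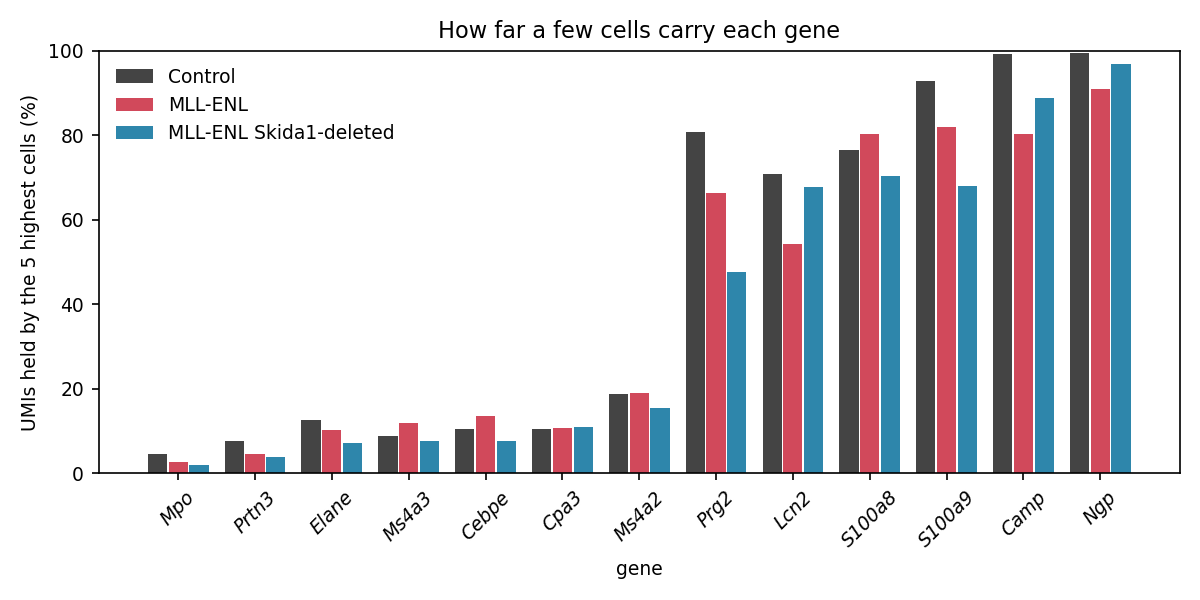
Percentage of a gene's member UMIs held by the 5 cells with the most (vertical axis) for 13 genes (horizontal axis), 1 bar per library. Camp stands at 80.2% to 99.3% and Ngp at 90.9% to 99.5%, whereas Mpo stands at 2.03% to 4.45%.

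Transcription factors of the myeloid program were lower in MLL::ENL than in Control members in 7 of 18 measured and higher in 1, with a median log2 ratio of -0.52. The medians within the 3 granule-sum bins were -0.36, -0.34 and -0.35, in the same direction but smaller in size than over all members. Over all genes compared the median was -0.17. The part of the mix of sums in the result was not tested. Cebpe (ENSMUSG00000052435), which drives the step to secondary granules, was at 174 CPM in Control, 50.7 in MLL::ENL and 81.3 with Skida1 deleted. It was 3.42-fold lower (3.06 to 3.84) in MLL::ENL than in Control and 1.60-fold higher (1.42 to 1.81) in the Skida1-deleted library than in MLL::ENL. Its order, Control highest and MLL::ENL lowest, was the same in every bin, but the latter difference did not reach 1.5-fold with equal weight on the bins (log2 ratio 0.38) or with members thinned to 3000 UMIs (0.47). Cebpb, the C/EBP factor of emergency granulopoiesis, was at 164, 60.7 and 55.7 CPM, and Cebpa, needed to form granulocyte-monocyte progenitors, at 89.9, 37.7 and 28.1 CPM. Both were highest in Control and did not differ by 1.5-fold between the fusion libraries. Gfi1, a repressor of the monocyte fate, was at 39.7, 24.6 and 23.9 CPM, 1.62-fold lower (1.34 to 1.95) in MLL::ENL, a call lost with median-of-ratios scaling (log2 ratio -0.52). Spi1, which encodes PU.1, was at 306, 208 and 206 CPM and did not reach 1.5-fold (log2 ratio -0.56). Between the fusion libraries, 3 of 17 were higher with Skida1 deleted and 1 lower. Besides Cebpe, these were Cebpz, which despite its name has a part in ribosome assembly (109, 118 and 187 CPM), Jun (12.9, 6.64 and 12.5 CPM) and, lower, Id1, an inhibitor of helix-loop-helix factors (122, 69.6 and 45.9 CPM). The calls of Cebpz (0.35) and Id1 (-0.41) were lost when thinned. Irf8 was limited by the rule and was at 20.9, 19.3 and 17.4 CPM.

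Of 19 growth factor and chemokine receptors, 2 were higher and 2 lower in MLL::ENL than in Control, close to the 20.8% of all genes called in either direction (median log2 ratio -0.13, but 0.03 with median-of-ratios scaling), and 0 of 17 were higher or lower in the Skida1-deleted library than in MLL::ENL. Csf3r, the receptor for the granulocyte factor G-CSF, was at 24.7, 26.8 and 28.6 CPM in Control, MLL::ENL and Skida1-deleted members. Csf2rb, the shared beta chain of the receptors for GM-CSF, IL-3 and IL-5, was at 75.5, 45.7 and 44.1 CPM and 1.65-fold lower (1.44 to 1.89) in MLL::ENL than in Control, a call lost with median-of-ratios scaling (log2 ratio -0.56). Its near-identical neighbour Csf2rb2 was also lower, and how the counting divided reads between them was not tested. Cd93, a receptor of early progenitors, was higher in MLL::ENL, at 38.6, 65.5 and 64.1 CPM, though not past 1.5-fold with equal weight on the bins (0.56). Kit, which the sort selected for, was at 119, 161 and 216 CPM. Of 7 NADPH oxidase genes, which make the oxidative burst, 2 were lower in MLL::ENL: Cyba at 404, 268 and 265 CPM and Cybb at 14.0, 5.01 and 8.05 CPM. Cyba was just past 1.5-fold (log2 ratio -0.59) and was not called with median-of-ratios scaling (-0.43) or several other settings.

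Genes known as targets of MLL fusions were higher in 10 of 21 measured in MLL::ENL over Control and lower in 1, Pbx3, with a median log2 ratio of 0.51, also with Skida1 at its bound. Hoxa9 (ENSMUSG00000038227) was at 30.9 CPM in Control, 68.1 in MLL::ENL and 69.6 with Skida1 deleted, 2.21-fold higher (1.88 to 2.59) in MLL::ENL. Hoxa7 was at 34.7, 70.6 and 70.7 CPM. Meis1, the partner of HoxA9 on DNA, was at 27.1, 49.2 and 45.1 CPM. These 3 genes were lowest in Control and nearly level between the fusion libraries. Mef2c, a factor of lymphoid and myeloid progenitors, was at 82.8, 158 and 203 CPM, and Hmga2, a chromatin protein of fetal progenitors, at 113, 238 and 234 CPM, both called higher in MLL::ENL, although Mef2c was not without the Irf8 limit (log2 ratio 0.28). Mecom, which encodes the stem cell factor EVI1, was at 1.83, 8.02 and 19.3 CPM and was higher at both steps, 4.39-fold (2.40 to 8.69) and 2.41-fold (1.81 to 3.25). In the Skida1-deleted library over MLL::ENL, 2 of 22 were higher, Mecom and Eya1, and 2 lower, Skida1 and Bend4, the latter not called at granule sums of at least 80 (log2 ratio -0.14). The same list had a median log2 ratio of MLL::ENL over Control of 0.68 in erythroid reference cells, which are cells with at least 20 erythroid UMIs and under 1 granule UMI per 10000, and of 0.48 in Irf8-high cells. The list was thus higher outside the members as well.

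A second set, of genes already seen to be raised by the fusion in these data and so without weight of its own, gave 4 higher of 4 measured. Among them Pcdh7, a protocadherin, was at 15.6, 75.5 and 68.2 CPM, Lst1, a myeloid adaptor of the plasma membrane, at 30.5, 109 and 161 CPM, and Gdpd3, a lysophospholipase, at 2.67, 22.9 and 30.6 CPM. Control was lowest for each, and the fusion libraries differed by less than 1.5-fold. Of 7 genes of the fetal and neonatal program, 3 were higher and 1 lower. Igf2bp2, an RNA-binding protein of fetal cells, was at 16.1, 37.2 and 30.5 CPM and Lin28b, which blocks let-7 maturation, at 18.3, 30.4 and 36.4 CPM. The call of Lin28b was lost at granule sums of at least 80 (log2 ratio 0.20). Dlk1, a Notch-like membrane protein, was at 16.9, 5.14 and 2.79 CPM, highest in Control.

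Genes of the G2 and M phases were lower in MLL::ENL than in Control members in 27 of 30, with 0 higher and a median log2 ratio of -0.97. Plk1, the mitotic kinase, was at 41.7, 11.4 and 14.5 CPM in Control, MLL::ENL and Skida1-deleted members, 3.66-fold lower (2.88 to 4.68) in MLL::ENL. Cdc20, an activator of the anaphase-promoting complex, was at 110.5, 39.95 and 49.2 CPM and Hmmr, a spindle protein, at 86.8, 29.3 and 32.6 CPM. Control was highest for all 3. Top2a, topoisomerase II alpha, differed less, at 379, 288 and 331 CPM. The list's median was -0.93, -1.39 and -1.35 in the 3 granule-sum bins, -0.53 in erythroid reference cells and -0.85 in Irf8-high cells. The S phase list had 6 lower of 30 and 0 higher (median -0.34), beside 15% lower and a median of -0.17 over all genes compared. Skida1-deleted over MLL::ENL had 0 of 30 higher or lower in either list, although the G2M median was 0.59 and 0.79 in the bins of 100 to 200 and of 200 or more, where the MLL::ENL library has 127 and 31 cells. Of the 24 genes of MYC and ribosome biogenesis, 6 were lower in MLL::ENL than in Control, among them Srm, spermidine synthase, at 304, 144 and 177 CPM.

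Among metabolic groups, 12 of 20 nuclear genes of the respiratory chain were higher in MLL::ENL than in Control members and 0 lower, with a median log2 ratio of 0.65. Atp5e, the epsilon subunit of ATP synthase, was at 284, 605 and 804 CPM and Ndufa1, a subunit of complex I, at 70.6, 146 and 160 CPM, both lowest in Control. The median was 0.81 in erythroid reference cells and 0.72 in Irf8-high cells. Sterol synthesis went the other way, with 8 of 16 lower and 0 higher (median -0.59). Sqle, squalene epoxidase, was at 23.6, 10.1 and 10.4 CPM and Msmo1, a sterol oxidase, at 19.9, 7.51 and 7.02 CPM. For this list the median was 0.12 in erythroid reference cells and -0.70 in Irf8-high cells. With Skida1 deleted, against MLL::ENL, 0 of 14 sterol genes were higher or lower, and the respiratory list had 2 higher and 1 lower of 20. Those were Atp5k, a subunit of ATP synthase (111, 212 and 433 CPM), Ndufa3 and, lower, Sdhd, a membrane anchor of complex II (212, 165 and 69.0 CPM).

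Of 25 interferon-response genes, 1 was higher and 3 lower in MLL::ENL than in Control, with a median log2 ratio of -0.16 (-0.01 with median-of-ratios scaling). Over all genes compared, 5.86% were higher and 15% lower, with a median of -0.17. The counts of this list and of MHC class I in MLL::ENL over Control were thus near those of all genes. Ifitm1, an antiviral membrane protein, was at 568, 166 and 146 CPM, 3.42-fold lower (3.22 to 3.65) in MLL::ENL than in Control. Isg15, a ubiquitin-like protein, was at 46.2, 13.8 and 17.5 CPM and Irgm1, a GTPase, at 36.4, 23.7 and 13.1 CPM. Control was highest for each, and the call of Irgm1 was lost with median-of-ratios scaling (-0.45). In the Skida1-deleted library over MLL::ENL, 0 of 24 were higher and 3 lower, namely Ifit1, Irgm1 and Rtp4, the last not called with that scaling (-0.53). Of 8 MHC class I genes, 1 was lower in MLL::ENL than in Control and 2 were lower in the Skida1-deleted library than in MLL::ENL. The latter were H2-T23, which encodes the non-classical molecule Qa-1 (78.3, 79.8 and 35.6 CPM), and Tap2, a subunit of the peptide transporter (58.5, 59.6 and 37.4 CPM). Both were level between Control and MLL::ENL and lowest in the Skida1-deleted library.

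The genes with the largest ratios, by a rule of at least 30 CPM in 1 library and the same sign in all 3 granule-sum bins, were mostly not granule genes. In MLL::ENL over Control they included Tpm3-rs7, a copy of the tropomyosin gene Tpm3 whose reads are uncertain (5.90, 74.9 and 74.97 CPM), and the metallothionein Mt2 (8.28, 74.0 and 97.5 CPM). Cd52, a surface glycoprotein of leukocytes, was at 51.0, 143 and 152 CPM. Control was lowest for all 3. At the lower end stood Ms4a3, Trappc13, a subunit of a vesicle tethering complex (46.1, 10.9 and 8.67 CPM), and Cebpe. Trappc13 had log2 ratios of -1.42 in erythroid reference cells and -1.67 in Irf8-high cells, close to the members' -1.98, and Tpm3-rs7 had 3.51 and 3.31 beside 3.46. Ms4a3 and Cebpe, which are near 0 in erythroid cells, had -3.10 and -3.57 in Irf8-high cells. These 2 ratios rest on few counts, since the MLL::ENL library had only 75 Irf8-high cells, with 1487793 gene UMIs in all. For Skida1-deleted over MLL::ENL the lower end held Rpa3, a subunit of replication protein A (94.2, 80.03 and 27.4 CPM), Sdhd, H2-T23 and Mrps28, a mitochondrial ribosome protein (136, 120 and 56.0 CPM). Rpa3 had a log2 ratio of -1.51 in members, -1.63 in reference cells and -2.05 in Irf8-high cells, and Sdhd -1.25, -1.14 and -1.20. The upper end held S100a8, Fcnb, Prg3, Atp5k and Hk2, hexokinase 2, at 36.8, 31.4 and 62.0 CPM.

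**Figure D4:**
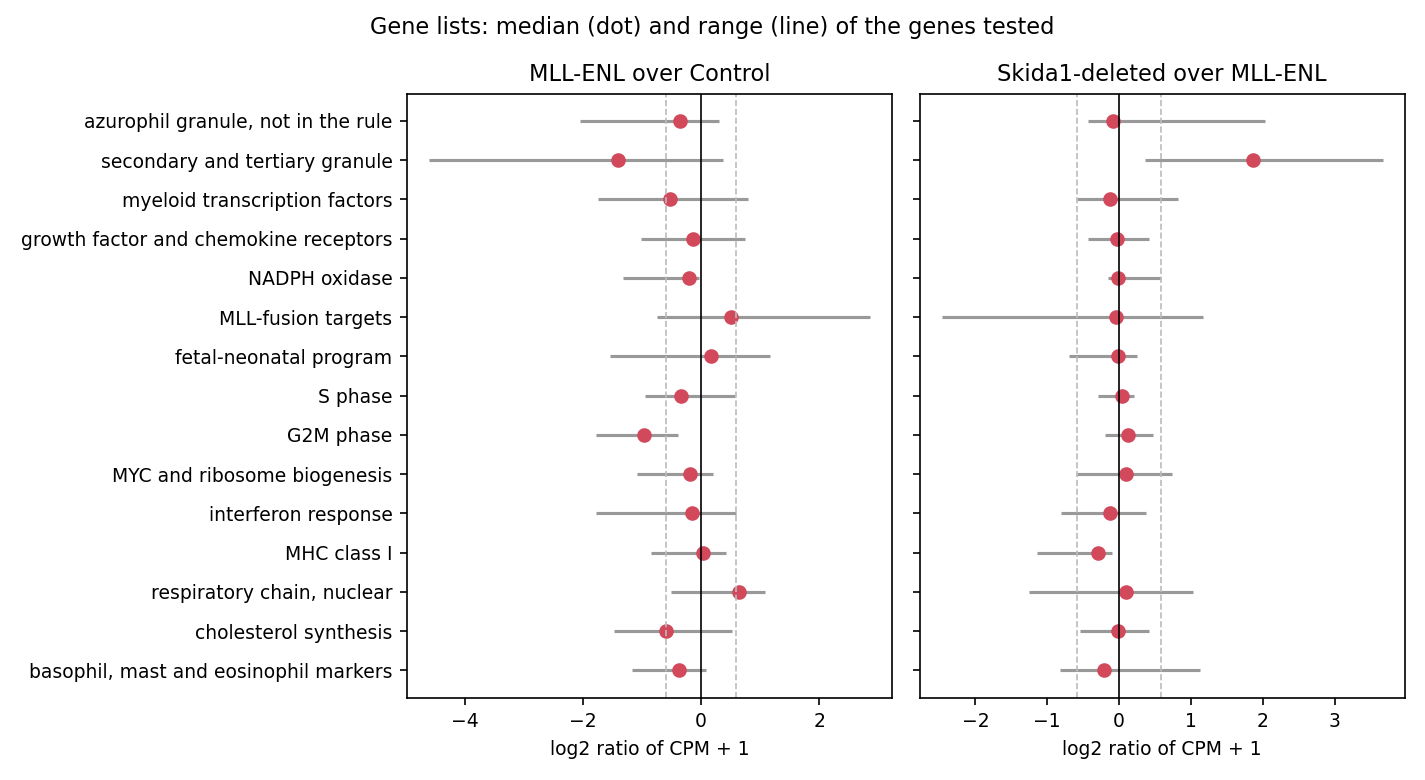
Median (dot) and range (line) of the log2 ratios of CPM + 1 (horizontal axes) of the measured genes of 15 lists (vertical axis), for MLL::ENL over Control (left) and the Skida1-deleted library over MLL::ENL (right), with dashed lines at 1.5-fold. At left the G2M list has a median of -0.97 and the MLL-fusion targets 0.51, and at right the medians lie near 0 except that of the secondary and tertiary granule list (1.86).

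Markers of other cell types were counted in the same cells. Basophil, mast cell and eosinophil genes summed to 1222, 986 and 937 CPM in Control, MLL::ENL and Skida1-deleted members, with 12, 12 and 10 of 12 genes detected, and were highest at low granule sums (1701, 1198 and 1194 CPM in the bin of 40 to 100, and 232, 167 and 214 CPM at 200 or more). Some of these genes define the subset described next, whereas Hdc was detected in 78.1%, 76.5% and 70.0% of members and Cpa3 in 58.2%, 55.5% and 44.4%. Members with at least 3 UMIs over Ms4a2, Fcer1a, Prss34, Prg2, Prg3 and Epx numbered 68 in Control (22.2%; 17.7 to 27.3), 71 in MLL::ENL (14.4%; 11.4 to 17.8) and 96 with Skida1 deleted (14.8%; 12.2 to 17.8). The limit of 3 UMIs is not scaled to depth, and members were deepest in Control (medians of 22420.5, 15655 and 13999 UMIs). The part of depth in these shares was not tested. The median granule sums of the cells in this subset were 71.4, 54.6 and 62.1. Gata2, a factor of mast cell and basophil progenitors, was at 328, 241 and 194 CPM in them and at 38.4, 40.7 and 35.2 CPM in members with neither this set nor the late granule genes. Mcpt8, a basophil protease, was at 536, 693 and 442 CPM against 38.6, 19.3 and 30.8 CPM. The rule thus also took in cells with basophil or eosinophil genes. The list had 4 lower and 0 higher of 10 in MLL::ENL over Control (median log2 ratio -0.38), and 3 higher and 1 lower of 9 in Skida1-deleted over MLL::ENL (median -0.21). Without the cells of the subset, a choice made after seeing the data, the first median was 0.14. These cells were picked by genes of the same list, so a shift of its median follows in part from the choice.

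For the other lists the summed levels were as follows. Macrophage genes summed to 6.46, 4.01 and 3.30 CPM, with Timd4 and Cd5l at 0 in all libraries, and monocyte and dendritic genes to 158, 154 and 134 CPM, with Siglech at 0. B-lineage genes summed to 62.8, 43.2 and 48.3 CPM, with Dntt and Rag1 at 0, and T and NK genes to 243, 222 and 246 CPM, with Cd3e and Cd3g at 0. Hepatocyte genes summed to 80.2, 77.8 and 73.6 CPM, with Fga at 0, megakaryocyte genes to 283, 224 and 226 CPM, with Gp6 and Ppbp at 0, and endothelial and stromal genes to 37.2, 58.4 and 47.0 CPM, with Lyve1 and Col1a1 at 0. The B-lineage, T and NK, hepatocyte and endothelial lists each had only 1 gene with enough counts to compare: Cd79b, Nkg7, Trf and Pecam1. Nkg7, detected in 89.2%, 84.2% and 83.9% of members, is also on the azurophil list. The T and NK sum was 19.5, 21.7 and 24.2 CPM in filtered cells other than members. Erythroid genes, 5 of which the rule limited, summed to 173, 187 and 187 CPM, with Alas2 at 0 in Control and MLL::ENL. Their sum was nearly level. Of 10 measured, 6 were higher and 2 lower in MLL::ENL than in Control (median log2 ratio 0.84). In Skida1-deleted over MLL::ENL, 0 were higher and 1 lower. The 10 include genes that the rule limited, such as Ermap and Car1, so these counts and the median are description only. The 6 higher genes include Ermap, an erythroid membrane protein that the rule limited and so description only, at 2.25, 11.9 and 12.3 CPM. Its 5 highest cells held 50%, 41.1% and 30.3% of its UMIs. Car2, a carbonic anhydrase, was at 29.8, 59.9 and 54.3 CPM, whereas Hbb-bt, a beta globin, was at 45.9, 16.9 and 24.0 CPM. Tfrc, the transferrin receptor, was at 59.7, 34.7 and 36.6 CPM. In erythroid reference cells the list summed to 5716, 4473 and 4852 CPM. The part of these other cells' RNA in the results was not tested.

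The antibody tags were not used to choose the cells. CD16_32, the tag for both Fc gamma receptors, had medians of 271.5, 274 and 258 UMIs per member in Control, MLL::ENL and Skida1-deleted members, with 10th to 90th percentiles of 75.5 to 982, 63.3 to 708 and 80 to 633. Erythroid reference cells of the same libraries had 23, 19 and 14, and Irf8-high cells 58.5, 81 and 96. The medians of members were nearly level between libraries, although their background in reference cells was not. Mean counts were 11.9, 15.0 and 19.3 times those of reference cells, but 6.97, 6.75 and 10.1 times as a share of each cell's tag UMIs, which puts MLL::ENL below Control. Above the reference cells' 95th percentile lay 85.6%, 91.3% and 97.8% of members. CD16_32 was lower in the bin of 40 to 100 (167, 180.5 and 168 UMIs) than in the bin of 100 to 200 (386, 403 and 365) in each library, and at 200 or more it was 377, 531 and 413. RNA of Fcgr3, which encodes CD16, was at 166, 129 and 119 CPM in members, 28.2, 28.9 and 36.4 in Irf8-high cells and 0.392, 0.146 and 0.281 in reference cells. Across members the Spearman correlation of tag and Fcgr3 RNA was 0.57 (n = 306), 0.51 (n = 494) and 0.53 (n = 647). Both are counts from the same cells and share their depth.

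CD34 had medians of 75, 62 and 71 UMIs in members, 11, 8 and 8 in reference cells and 206, 188 and 202 in Irf8-high cells. Members thus lay between these cell groups in each library. Cd34 RNA was at 176, 195 and 167 CPM in members. The ratio of mean CD34 counts to reference cells was 7.11, 8.61 and 9.95, and 3.62, 3.32 and 4.11 as a share of tag UMIs. Tags of both CD16_32 and CD34 were above the reference cells' 95th percentile in 222 Control members (72.6%; 67.2 to 77.5), 427 MLL::ENL members (86.4%; 83.1 to 89.3) and 600 Skida1-deleted members (92.7%; 90.5 to 94.6). The thresholds themselves differed, at 101, 56.6 and 39.0 UMIs for CD16_32 and 26, 17 and 17 for CD34, being highest in Control. In Irf8-high cells the shares with both were 31.4%, 60.0% and 68.1%, and in all filtered cells other than members 7.31%, 5.13% and 10.2%. Counts of both tags above the erythroid background were thus frequent among cells chosen by RNA. This cut is not a sorting gate for granulocyte-monocyte progenitors. Reference cells also had fewer tag UMIs in all, with medians of 1846, 1822 and 1682 against 3251, 3050.5 and 2798 in members.

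The subsets differed in the CD16_32 and CD34 tags. Members with basophil or eosinophil genes had CD16_32 medians of 708, 635 and 490.5 UMIs and CD34 medians of 31.5, 29 and 36.5. Members with neither that set nor late granule genes had 206, 231 and 211.5 for CD16_32 and 98.5, 68 and 81 for CD34. The basophil or eosinophil set was thus higher in the Fc receptor tag and lower in CD34 in every library. Late granule cells had CD16_32 medians of 528 and 560 in Control and the Skida1-deleted library but 46.5 in MLL::ENL, where they were shallow in tags as well (CD117 at 490, 324 and 109 UMIs in the same order). CD41, an integrin of megakaryocyte and mast cell progenitors encoded by Itga2b, had medians of 27, 30 and 29 in members, 4, 4 and 3 in reference cells and 5, 6 and 12 in Irf8-high cells. Itga2b RNA was at 23.6, 19.8 and 17.9 CPM in members and at 67.5, 54.5 and 55.8 CPM in those with basophil or eosinophil genes. Median CD41 tag counts were 30, 24 and 28.5 in that subset, beside 28.5, 32 and 31 in members with neither marker set. The tag was thus close between these subsets, unlike the RNA. CD117, the KIT protein used in the sort, had medians of 539.5, 472 and 465. Sca1, the stem cell antigen, had 55.5, 24.5 and 21, beside 38, 20 and 15 in reference cells, so that both populations were highest in Control.

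**Figure D5:**
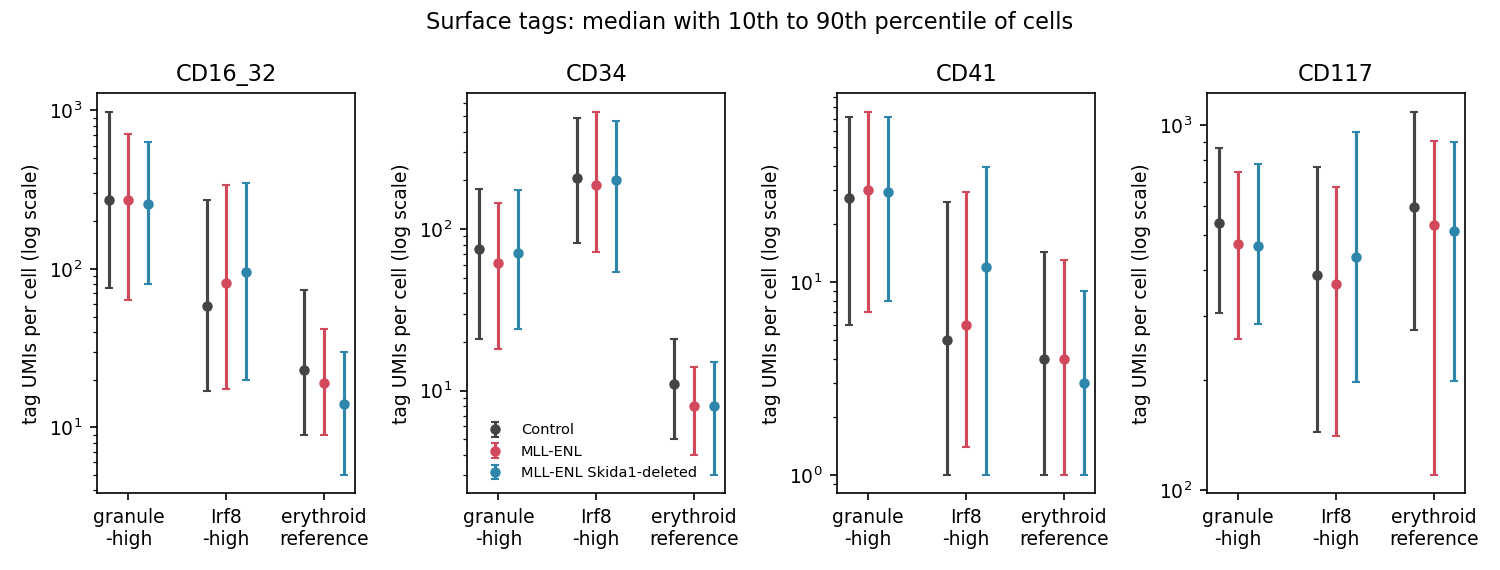
Median tag UMIs per cell (vertical axes, log scale) of CD16_32, CD34, CD41 and CD117 in granule-gene-high, Irf8-high and erythroid reference cells (horizontal axes), 1 colour per library, with bars from the 10th to the 90th percentile of cells. CD16_32 is highest in granule-gene-high cells (258 to 274 UMIs), CD34 in Irf8-high cells (188 to 206), and CD117 differs less between the cell groups.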

How the data were processed

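The deposited files hold UMI counts per cell barcode for 32285 genes and 10 antibody tags, as the authors deposited them, with no normalization. Per the labels' protocols, polyA RNA was captured with a 10x Genomics 3' kit for single cells (v3.1) that also reads feature barcodes. Cell Ranger 6.1.2 made the counts, per the file headers; version 6.0.1 and build mm10 stand in the submitters' processing notes. Whether doublets were removed was not given in the sources used here. None were removed in the main analysis. Removing the cells with the highest Scrublet scores (scanpy 1.11.5) at 0.8% per 1000 cells was an alternative and took out 2, 10 and 23 members. UMIs were summed over the members of each library and divided by all their gene UMIs (CPM). A gene was compared if it had 5 CPM or more in 1 library or the other and 50 UMIs or more in the sum of both. Each group had 1 library, so no test was made. Intervals are 95% exact Poisson, binomial (Clopper-Pearson) or conditional binomial, except the log normal form for ratios of shares. The named genes were the 12 highest and 12 lowest ratios among genes of at least 30 CPM with the same sign in all 3 granule-sum bins, sex-linked, ribosomal, mitochondrial and rule genes left out, and up to 4 genes per list with the largest ratios. Other genes named with a list were chosen for their known role after their values were seen. Members, lists and thresholds were chosen with earlier results of these data known. Alternatives covered doublets, the rule's limits, depth, scaling, weighting, filter and pseudocount. The ratio script was checked on simulated data. Python 3.11.15, numpy 2.4.6, scipy 1.17.1, pandas 2.3.3 and matplotlib 3.10.9 were used.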

Additional observations from a re-analysis of the deposited data

How the results depend on the processing

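No paired analysis was possible because each group had 1 library. Depth limits what can be said of rare RNAs, since members were deepest in Control. The share of members was 7.98%, 7.54% and 10.5% (in the order Control, MLL::ENL, Skida1-deleted) with a granule sum of at least 20, and 3.38%, 2.0% and 3.31% with at least 80, where the ratios were 0.593 for MLL::ENL over Control and 1.66 for Skida1-deleted over MLL::ENL. It was 8.70%, 5.27% and 7.19% after thinning every cell to 3000 UMIs (first ratio 0.605), and 14.4%, 11.4% and 12.4% of cells below the erythroid limit (second ratio 1.09). An Irf8 limit scaled to depth gave 6.44% in Control and a first ratio of 0.717, and no Irf8 limit 8.55% and 0.563. Without the erythroid limit MLL::ENL had 5.14% and the second ratio was 1.30. With at least 5000 UMIs MLL::ENL had 5.35%, the first ratio reversed to 1.01 and the second was 1.25; the cause was not tested.

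Counts of genes past 1.5-fold in MLL::ENL over Control were 884 higher and 783 lower with median-of-ratios scaling, 936 and 913 with totals without rule, mitochondrial and ribosomal protein genes, and 362 and 909 with a pseudocount of 5 CPM. There were 897 lower with members thinned to 3000 UMIs and 1008 higher without the filter on low counts. In Skida1-deleted over MLL::ENL they were 387 higher and 428 lower without that filter, 94 and 43 with the pseudocount of 5 CPM, and 298 lower with equal weight on the bins. List medians of MLL::ENL over Control that moved were G2M (-0.82 with median-of-ratios scaling, -1.26 with equal bins), interferon response (-0.01 with that scaling) and, under alternatives chosen after seeing the data, basophil genes (0.17 without the Irf8 limit, 0.14 without basophil or eosinophil cells) and secondary granule genes (-0.07 without late granule cells). Cells left out as late granule, basophil or eosinophil cells were picked by genes of these same lists, so such shifts follow in part from the choice. In Skida1-deleted over MLL::ENL they were receptors (-0.16) and G2M (0.32) at a granule sum of at least 80, G2M with equal bins (0.37), fusion targets when thinned (0.06), S phase with median-of-ratios scaling (0.10) secondary granule genes without late granule cells (0.16), and erythroid genes (-0.28 without doublets, -0.20 at a granule sum of at least 20, -0.33 when thinned, -0.40 with the mean of per-cell CPM).

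Single genes reversed in MLL::ENL over Control as follows: Chil3 to 0.59 at a granule sum of at least 20, Elane to 0.21 with equal bins, Cma1 to 0.75 when thinned and 1.29 without late granule cells, Camp to 0.59 without these, S100a9 to 0.11 with equal bins and 0.06 without late granule cells, Prg3 to 0.08 and Prg2 to 0.18 without basophil or eosinophil cells, and Hbb-bt to 0.51 among members without an Irf8 UMI. In Skida1-deleted over MLL::ENL, Chil3 reversed to -2.18 and Lcn2 to -0.03 at a granule sum of at least 20, Dlk1 to 0.16 at 80, Cybb to -0.15 with equal bins and -0.13 without late granule cells, Ngp to -0.33 and S100a9 to -0.03 without these and Epx to -0.03 without basophil or eosinophil cells. Of 97 single genes called in MLL::ENL over Control, between 0 and 14 were under 1.5-fold in any 1 alternative (8 with median-of-ratios scaling, 13 with equal bins, 14 without the Irf8 limit), and of 48 called in Skida1-deleted over MLL::ENL between 0 and 9. The causes were not tested.

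The CD16_32 ratio of members to reference cells, in the same order of libraries, was 12.4, 15.6 and 19.9 without doublets, 9.52, 11.6 and 14.8 at a granule sum of at least 20, 13.0, 18.1 and 22.9 at 80, 12.5, 14.7 and 18.4 with at least 5000 UMIs, and 6.97, 6.75 and 10.1 as a share of tag UMIs. It was 10.8, 12.6 and 16.2 in the bin of 40 to 100, 14.3, 19.3 and 23.2 in that of 100 to 200, and 10.9, 24.0 and 25.9 at 200 or more. With the scaled Irf8 limit it was 10.8 in Control and 14.8 in MLL::ENL. The CD34 ratio was 7.49, 8.87 and 10.3 without doublets, 7.56, 7.19 and 8.81 at a granule sum of at least 20, 3.62, 3.32 and 4.11 as a share of tag UMIs, 8.71, 11.5 and 11.6 in the bin of 100 to 200, and 5.27, 5.95 and 6.45 at 200 or more. It was 10.2 in MLL::ENL and 10.4 in Skida1-deleted at 80, 9.65 in Control and 9.74 in MLL::ENL with the scaled Irf8 limit, and, in MLL::ENL, 9.04 with at least 5000 UMIs and 7.75 in the bin of 40 to 100.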
